A study of Rattus norvegicus with 6 samples.

Results

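Coagulation and complement genes were followed in the liver of male Sprague Dawley rats. The rats had received tienilic acid (TA), a diuretic that lowers uric acid and was withdrawn because of liver injury. The group was set by a list of 37 gene names, and each gene was read through the probe set whose annotation gives that symbol alone, the brightest by its mean over the 6 arrays where a gene had several. This gave 32 of the 37 genes, among 14217 genes with such a probe set in all. F7, F11 and F13b had none, and the 4 probe sets of C2 and Cfb carry both symbols together and were not used. All 32 passed the filter on dim probe sets (a mean above 2.82 on the log2 scale), 29 through their only probe set. The means of 31 lay between 10.60 and 15.83, and that of Cfd, the factor D gene, was 6.66. Levels of different genes are not comparable on this array.

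Rats weighing 210 to 230 g received TA at 100 mg/kg by gavage, dissolved with an equimolar amount of sodium bicarbonate, or bicarbonate alone, the vehicle. Those of the early time had 1 dose and were killed 6 h later. Those of the late time were dosed at 0 and 16 h and killed at 24 h. At both times there were 2 TA arrays of 1 animal each and 1 vehicle array of RNA pooled from 2 rats, 6 arrays and 8 rats in all. Every difference is therefore between 2 animals and 1 pool whose own spread is unknown, and the number of arrays limits the precision. Both animals of a time were set against the same pool, so that a shared direction is not independent evidence. Array medians lay between 3.27 and 3.31. Fluidics runs were not read from a label but inferred from gaps between the hybridization times in the array settings. On this basis the vehicle pool of 6 h and TA animal 1 of 6 h were in a first fluidics run. The remaining 4 arrays formed the second run. All 6 hepatocyte markers measured were above the filter, and the log2 of their summed level was 18.11 to 18.20 on the 6 arrays. Macrophage markers, 9 of 9 above the filter, summed to 13.40 in the vehicle pool of 6 h, 13.74 and 13.31 in the TA animals of 6 h, 13.30 in the vehicle pool of 24 h, and 13.12 and 13.38 in the TA animals of 24 h.

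Hepatocytes make most plasma clotting factors and complement proteins. Coagulation is a cascade of proteases in which factor X with its cofactor, factor V, cuts prothrombin to thrombin. Serpins restrain it, and plasmin, made from plasminogen, dissolves the clot. Several of the proteases need vitamin K for the carboxylation that lets them bind membranes. Complement starts from antibody (C1), from sugars (mannose binding lectins with MASP proteases) or by itself (C3, factor B, factor D), converges on C3 and C5 and ends in the pore built from C5b to C9. Transcription in hepatocytes draws on factors such as HNF1, HNF4 and C/EBP. In whole liver RNA, fewer cells of a type and less RNA per cell cannot be told apart.

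The promoters are shown first because they hold what some of these genes share in sequence. The RefSeq tables (build GRCr8) held a promoter, 250 bases before the gene start to 50 after it, for 25 of the 32 genes. The HNF1 consensus, a palindrome of 13 letters that reads the same on both strands, was matched with up to 2 mismatches in 6 of the 25, 24.0%, against 1.22% of 27457 promoters of all genes. These were F2 (prothrombin), Proc (protein C), Plg (plasminogen), C4bpa (a chain of the C4b binding protein), Cfi (factor I) and C5, which held 2 matches. Counted from the gene start as 0, all but the upstream match of C5 began between -78 and -37. The matches, on the strand of the gene, were
F2: GTTCAATATTAAC
Proc: GTTATGGATTAAC
Plg: GACAATGATTAAC
C4bpa: GTTAATCATCCAC
Cfi: GTTAAACATTAAA
C5 upstream: GTTAATGTTAAAC
C5 near the start: ATTAATAATTAAC
The whole promoters of 3 genes follow, with the matches in capitals: F2, which stayed close to the vehicle pools, and Plg and C5, among the genes furthest from them. They lie at chr3:98065197-98065496, chr1:50915357-50915656 and chr3:38759419-38759718, all on the minus strand.
F2: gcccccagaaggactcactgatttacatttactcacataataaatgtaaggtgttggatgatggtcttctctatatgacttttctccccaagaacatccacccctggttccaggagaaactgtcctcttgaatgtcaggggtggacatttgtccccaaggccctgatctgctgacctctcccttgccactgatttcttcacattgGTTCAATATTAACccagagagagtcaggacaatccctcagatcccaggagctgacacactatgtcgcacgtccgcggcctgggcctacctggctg
Plg: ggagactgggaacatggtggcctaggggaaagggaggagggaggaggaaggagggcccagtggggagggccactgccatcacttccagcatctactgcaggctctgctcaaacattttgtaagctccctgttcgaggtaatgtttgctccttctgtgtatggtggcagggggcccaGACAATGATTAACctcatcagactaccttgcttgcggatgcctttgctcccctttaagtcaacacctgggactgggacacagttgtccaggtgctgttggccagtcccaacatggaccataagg
C5: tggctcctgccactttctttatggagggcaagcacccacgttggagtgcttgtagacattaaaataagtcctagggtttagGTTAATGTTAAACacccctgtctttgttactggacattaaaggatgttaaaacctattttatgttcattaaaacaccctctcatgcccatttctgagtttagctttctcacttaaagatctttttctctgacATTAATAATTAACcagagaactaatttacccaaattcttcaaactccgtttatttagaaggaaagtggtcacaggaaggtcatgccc
The other motifs were searched on both strands. HNF4, CAAAGTCCA with 1 mismatch, was matched in 3 of 25 (C4bpa, C8b and F9; 12.0%, against 8.33% of all). C/EBP, TTGCGCAA with 1 mismatch, was matched in 3 (C3, C8b and F9; 12.0% against 5.82%), and its match in C8b overlaps the HNF4 match. STAT, TTCCNGGAA with none, was matched in Pros1 alone (4.0% against 1.23%), and TATAAA in C6 alone, after the gene start (4.0% against 14.3%). A match is a description of the letters and not a binding site.

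**Figure D1:**
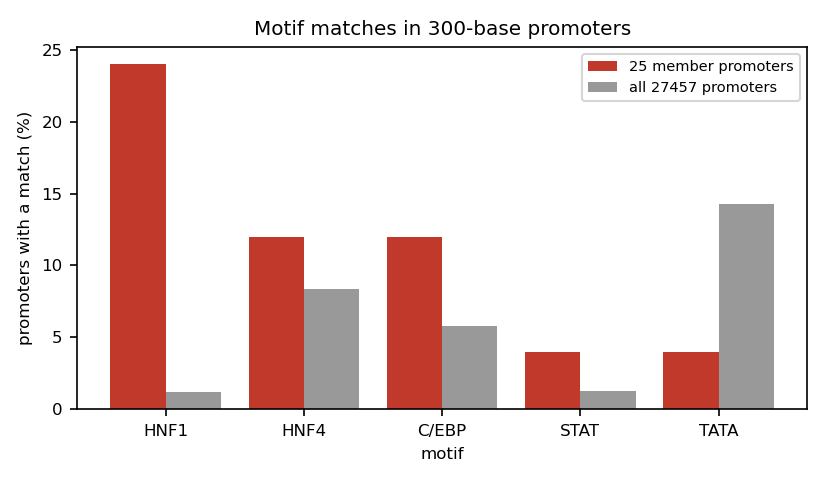
Bars give the percentage of promoters with at least 1 match to each motif (y axis, from 0) for the 25 member promoters and for all 27457 promoters. The HNF1 bar of the members stands at 24.0% and that of all promoters at 1.22%.

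None of these genes passed the test after TA, and most were close to the vehicle pool, as most genes on the array were. The mean log2 difference was under 0.2 in size for 23 of 32 genes at 6 h (65.4% of all genes) and for 25 at 24 h (67.0%). The median over the 32 was 0.0092 at 6 h and -0.073 at 24 h, against -0.028 and -0.0084 over all 10449 genes kept. None passed limma's test at 6 h, where 0% of 18625 probe sets were called (adjusted p under 0.05), or at 24 h, where 0.00537% were. The smallest adjusted p among them was 0.84 for Cfd at 6 h and 0.90 for F5 at 24 h. An unadjusted p under 0.05 was reached by 2 genes at 6 h, Mbl2 and Cfd (5.63% of all genes), and by 1 at 24 h, F5 (5.16%). The 95% interval of the difference lay within 2-fold in both directions for 29 genes at 6 h (78.6% of all genes) and 26 at 24 h (78.9%). None was 1.5-fold higher in both animals, against 0.871% of all genes at 6 h and 0.89% at 24 h, or 1.5-fold lower in both, against 1.35% and 1.28%. At 6 h, 9 of the 32 were above the vehicle pool in both animals (22.9% of all genes) and 11 below it in both (38.4%). At 24 h the counts were 6 above (28.1%) and 9 below (34.5%).

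**Figure D2:**
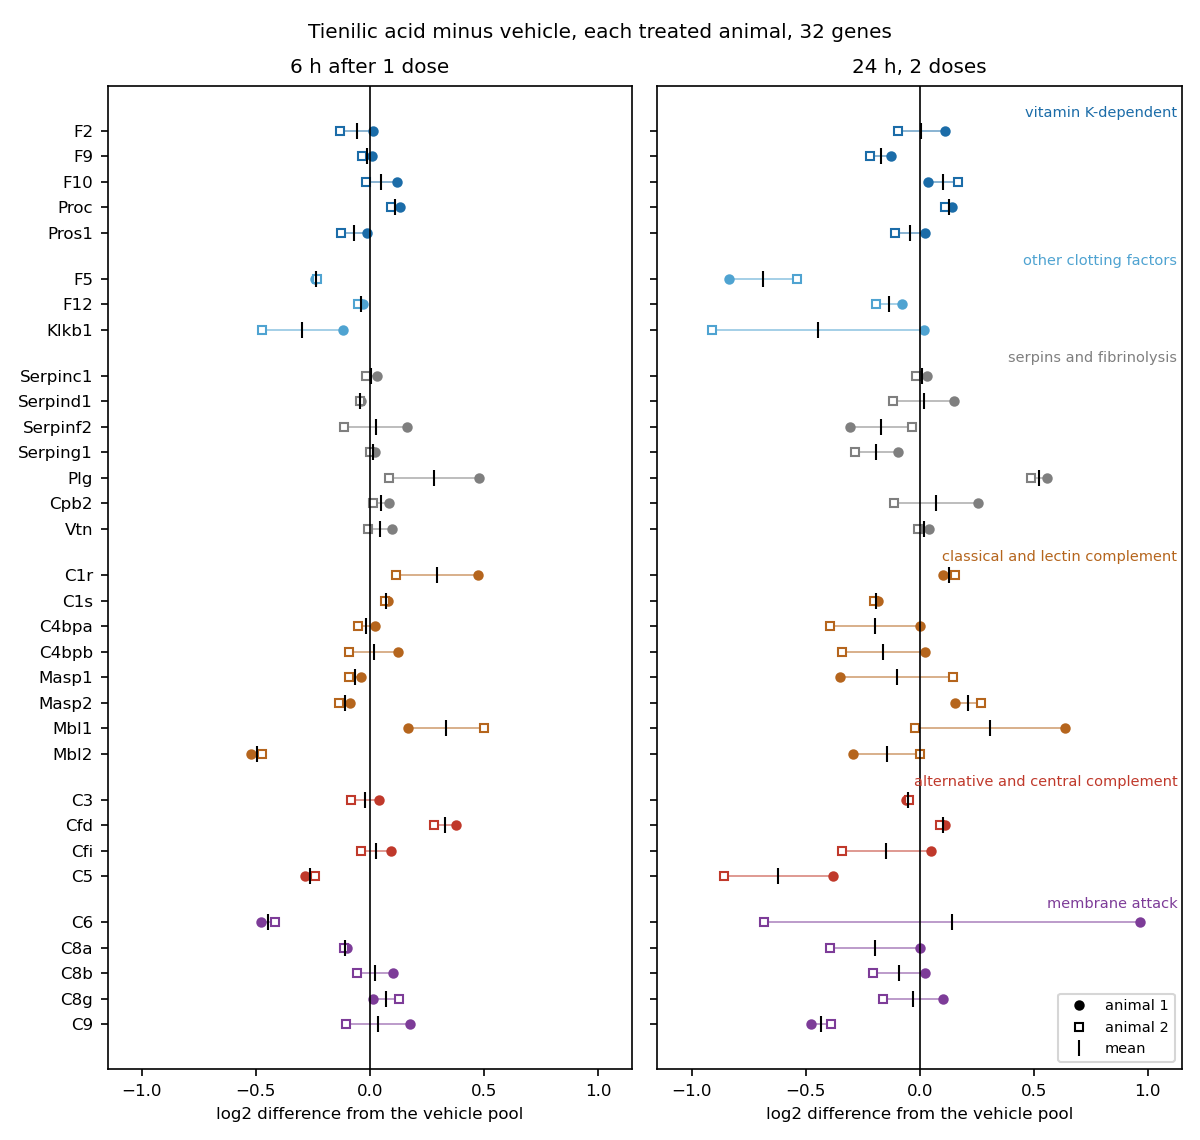
Each line is a gene, grouped by its place in the cascades, and the x axis is the log2 difference from the vehicle pool at 6 h (left) and 24 h (right), with animal 1 as a filled circle, animal 2 as an open square and their mean as a tick. F5 and C5 lie left of 0 in all 4 animals and Plg right of it, while the animals of 24 h lie far apart for C6 and Klkb1.

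The vitamin K-dependent genes stayed close to the vehicle pool of their own time. All 5 measured, F2, F9, F10, Proc and Pros1, were within 0.2 of it at both times, with a median of -0.014 at 6 h and 0.0072 at 24 h. Against the pool of the other time their median was 0.36 at 6 h and -0.19 at 24 h. F2, prothrombin, was at 14.90 in the vehicle pool and 14.91 and 14.77 in the TA animals at 6 h, and at 14.70 in the pool and 14.81 and 14.60 in the animals at 24 h. The animals lay on both sides of the pool at each time. Its differences were -0.058 ± 0.15 and 0.0072 ± 0.15 (SE, n = 2 animals against 1 pool), with 95% intervals of -0.49 to 0.37 and -0.42 to 0.43. Here and below, the SE of a gene is 1 estimate for both times. Proc, the anticoagulant protease protein C, was at 14.05 in the pool and 14.18 and 14.14 in the animals at 6 h, and at 13.79, 13.94 and 13.91 at 24 h. It was above the pool in all 4 animals by 0.11 ± 0.09 and 0.13 ± 0.09. F9, the factor IX gene, had the largest difference of these genes at 24 h, -0.17. Ggcx, the carboxylase that modifies these proteins, was no member and was chosen after its values were seen; it was at 9.86 in the vehicle pool and 10.21 and 10.23 in the animals at 6 h, and at 9.70, 9.70 and 9.65 at 24 h (limma adjusted p = 0.81 at 6 h).

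The other clotting factors were below the vehicle pool of their own time on average at both times. Against the pool of the other time the median of the 3 was 0.12 at 6 h and -0.85 at 24 h. F5, the cofactor factor V, was at 12.22 in the vehicle pool and 11.98 and 11.99 in the TA animals at 6 h, and at 11.87 in the pool and 11.03 and 11.33 in the animals at 24 h. Both animals of 24 h were lower than all the other arrays. The difference was -0.24 ± 0.16 at 6 h and -0.69 ± 0.16 at 24 h, a TA level 0.621 times that of the pool (95% interval of the log2 difference -1.16 to -0.21; limma adjusted p = 0.90). The difference between the times, -0.45 ± 0.23, was not called (adjusted p = 1.0), and against the vehicle pool of 24 h the animals of 6 h were higher by 0.12. Klkb1, plasma prekallikrein, which activates factor XII, was at 13.36, 13.24 and 12.89 at 6 h and at 12.96, 12.98 and 12.05 at 24 h, in the order pool, animal 1, animal 2. Only animal 2 of 24 h stood apart, and without it the difference of 24 h was 0.020 in place of -0.45 ± 0.46. F12 itself had -0.040 and -0.14.

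Of the 7 serpin and fibrinolysis genes, 6 were within 0.2 at both times: Serpinc1, Serpind1 (heparin cofactor II), Serpinf2, Serping1, Cpb2 (a carboxypeptidase that slows fibrinolysis) and Vtn (vitronectin). Serpinc1, antithrombin, was at 14.94 in the pool and 14.97 and 14.92 in the animals at 6 h, and at 14.84, 14.88 and 14.82 at 24 h. These are differences of 0.0064 ± 0.10 and 0.0081 ± 0.10, with 95% intervals within 0.29 of 0 on either side. Plg, plasminogen, was the exception. It was at 14.26 in the vehicle pool and 14.73 and 14.34 in the TA animals at 6 h, and at 13.81 in the pool and 14.36 and 14.29 in the animals at 24 h. All 4 TA animals were above both pools, as for 2 of the 32 genes (2.95% of all genes), the other being Cfd. The difference was 0.28 ± 0.21 at 6 h and 0.52 ± 0.21 at 24 h, 1.44 times the pool (limma adjusted p = 0.97). No array was lower than the vehicle pool of 24 h, and against the pool of 6 h the animals of 24 h were higher by 0.071. Serping1, the C1 inhibitor, was at 13.88, 13.90 and 13.88 at 6 h and at 13.88, 13.78 and 13.60 at 24 h, with differences of 0.012 and -0.19.

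In the classical and lectin pathways the differences of the 8 genes had both signs, with C4bpa and C4bpb, the chains of the C4b binding protein, at -0.016 and 0.016 at 6 h and -0.20 and -0.16 at 24 h. Mbl2, mannose binding lectin C, was at 14.39 in the vehicle pool and 13.87 and 13.92 in the TA animals at 6 h, and at 14.27 in the pool and 13.98 and 14.27 in the animals at 24 h. At 6 h both animals were below both pools, a difference of -0.50 ± 0.16 (95% interval -0.97 to -0.02; limma adjusted p = 0.84). At 24 h the difference was -0.15 ± 0.16, and animal 2 was level with the pool. Its other, dimmer probe set had -0.19 at 6 h and -0.033 at 24 h. Mbl1, mannose binding lectin A, had values of the other sign, 11.33 in the pool and 11.50 and 11.84 in the animals at 6 h, and 11.42, 12.06 and 11.40 at 24 h. Its differences were 0.33 ± 0.35 and 0.31 ± 0.35, and at 24 h animal 1 carried all of it. C1r and C1s, the proteases of the C1 complex, had 0.29 and 0.072 at 6 h and 0.13 and -0.19 at 24 h. C1s was at 13.98, 14.06 and 14.05 at 6 h and at 13.90, 13.72 and 13.70 at 24 h. C1r was at 12.86, 13.33 and 12.97 at 6 h and at 12.55, 12.65 and 12.70 at 24 h. The macrophage markers, which include the C1q genes, were also highest in animal 1 of 6 h, and their part in the C1r value was not tested. Masp1 was at 10.80, 10.76 and 10.70 at 6 h and at 10.52, 10.17 and 10.67 at 24 h, where the animals lay on both sides of the pool. Its 2 dimmer probe sets had -0.61 and -0.083 at 6 h and -0.012 and 0.0095 at 24 h. Masp2 was at 12.37, 12.28 and 12.23 at 6 h and at 11.85, 12.00 and 12.11 at 24 h. Its differences were -0.11 and 0.21, and turned to 0.41 and -0.31 against the pool of the other time. The brighter of its 2 other probe sets had 0.054 and 0.048.

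The pathways converge on C3 and C5, of which C3 lay close to the pools and C5 below them on average. C3 was at 15.92, 15.96 and 15.84 at 6 h and at 15.79, 15.73 and 15.75 at 24 h, differences of -0.022 ± 0.11 and -0.053 ± 0.11. C5 was at 13.76 in the vehicle pool and 13.47 and 13.52 in the TA animals at 6 h, and at 13.69 in the pool and 13.31 and 12.83 in the animals at 24 h. It was the only member below both pools in all 4 TA animals, 1 of 32 (5.44% of all genes). The difference was -0.26 ± 0.24 at 6 h and -0.62 ± 0.24 at 24 h, 0.651 times the pool (95% interval -1.31 to 0.07; limma adjusted p = 0.96). Cfd, the protease that cleaves factor B, was at 6.46, 6.83 and 6.74 at 6 h and at 6.58, 6.69 and 6.67 at 24 h, differences of 0.33 ± 0.10 and 0.10 ± 0.10. Cfi, the protease that inactivates C3b and C4b, had 0.027 and -0.15. Cfd is also a product of fat cells, and of 5 adipocyte markers measured 3 (Adipoq, Plin1 and Lep) were below the filter. The log2 of the summed level of the 5, nearly all of it Cidec, was 10.02 in the vehicle pool and 10.08 and 9.84 in the animals at 6 h, and 10.74, 10.51 and 10.74 at 24 h. Fabp4, the other marker above the filter, was near its threshold of 2.82, at 3.27, 3.67 and 3.27 at 6 h and at 3.25, 3.26 and 3.12 at 24 h. It was highest in the same animal as Cfd, but in animal 2 of 6 h it was level with the pool, where Cfd was above it. The part of fat cells in the Cfd value was not tested. Averaged over both times, 2 members had an unadjusted p under 0.05, F5 and Cfd (6.3% of all genes). None was called (0.00537% of probe sets), with a smallest adjusted p of 0.74 for F5.

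Of the pore-forming genes, C9 and C6 stood out. C9, which forms the ring of the pore, was at 14.41 in the vehicle pool and 14.59 and 14.31 in the TA animals at 6 h, and at 14.26 in the pool and 13.78 and 13.87 in the animals at 24 h. The animals of 6 h lay on both sides of the pool, and those of 24 h were the lowest of the 6 arrays. The difference was 0.037 ± 0.16 at 6 h and -0.43 ± 0.16 at 24 h, 0.741 times the pool (limma adjusted p = 0.95). C6, which joins C5b in starting the pore, was at 11.91, 11.44 and 11.50 at 6 h and at 11.48, 12.45 and 10.80 at 24 h. Animal 2 minus animal 1 was -1.65 at 24 h, these being the lowest and the highest of the 6 arrays, and the difference of 0.14 ± 0.76 says nothing of a direction. The 3 genes of C8 (C8a, C8b and C8g) were within 0.2 at both times.

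**Figure D3:**
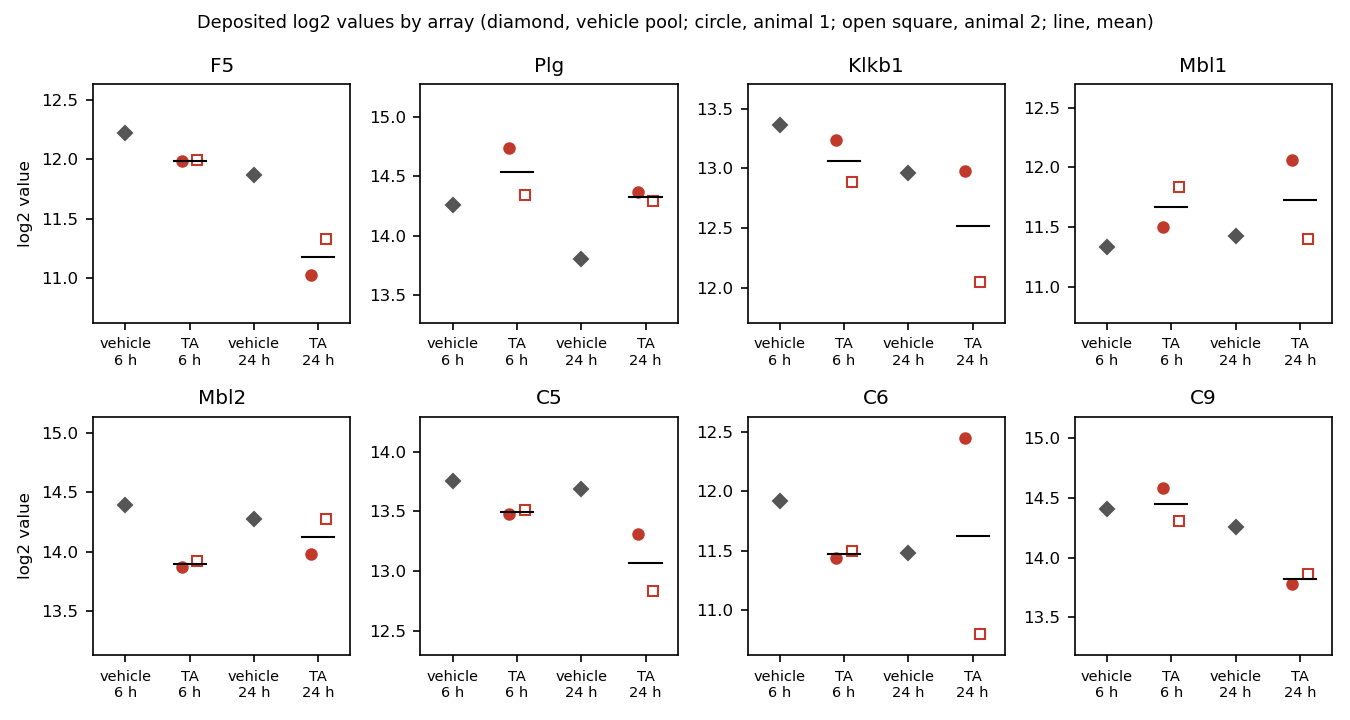
Deposited log2 values (y axis, each panel spanning 2 log2 units) of 8 genes in the vehicle pools (diamonds) and TA animals (filled circle, animal 1; open square, animal 2), with a line at the TA mean. F5, C5 and C9 have their lowest arrays among the TA animals of 24 h, at 11.03, 12.83 and 13.78, and C6 spans 10.80 to 12.45 between those animals.

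The treated animals of 1 time lay apart with the same sign for most of these genes. Animal 2 was below animal 1 in 26 of 32 genes at 6 h, against 49.4% of all genes, and in 23 of 32 at 24 h, against 56.7%. At 24 h, 12 of the 15 coagulation genes and 11 of the 17 complement genes were lower in animal 2 (56.7% of all genes). Some of the complement genes, picked after their values were seen, were apart by like amounts. Animal 2 minus animal 1 was -0.40 for C4bpa, -0.36 for C4bpb, -0.39 for C8a, -0.39 for Cfi and -0.48 for C5. In animal 1 the first 4 of these were within 0.05 of the pool. The likeness of the amounts follows from the picking. The complement genes lower in animal 2 but not picked ran from -1.65 for C6 and -0.66 for Mbl1 to -0.019 for C1s. The other way lay Masp1, at 0.50, Mbl2, at 0.29, and 4 more. At 6 h animal 1 and the pool were in the first fluidics run and animal 2 in the second; at 24 h all 3 arrays were in 1 run.

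Many of these genes were lower on the arrays of 24 h than on those of 6 h, in vehicle and TA livers alike. All 3 arrays of 24 h were below all 3 of 6 h for 16 of the 32 genes, against 15.1% of all genes, and above them for 0, against 13.3%. The 16 were F5, F10, F12, Proc, Pros1, Serpinc1, Serpind1, Serpinf2, Vtn, C1r, C1s, C3, C8b, C9, Masp1 and Masp2, 9 of 15 coagulation genes and 7 of 17 complement genes. With arrays quantile normalized, or each centred on its median, settings chosen after seeing the data, the count was 14 (11.8% and 11.4% of all genes). The vehicle pool of 24 h was below that of 6 h in 24 of 32 genes (59.3% of all genes), and the TA mean of 24 h below that of 6 h in 28 (50.6%). Serpinf2, the plasmin inhibitor, was at 12.86, 13.03 and 12.75 on the arrays of 6 h and at 12.37, 12.07 and 12.34 on those of 24 h. Pros1, protein S, was at 11.78, 11.77 and 11.65 and then at 11.33, 11.35 and 11.23. Both are among the 16, for all of which the times do not overlap by the rule that set them. The log2 sum of the stellate cell markers, 6 of 8 above the filter, was also lower at 24 h. It was 13.45, 13.79 and 13.33 at 6 h and 13.11, 12.50 and 12.88 at 24 h, with Col3a1 as its brightest marker. All 3 arrays of 24 h were below all 3 of 6 h in 3 of the 6 markers above the filter. The TA mean of 24 h was below that of 6 h in 6 of these 6 markers, in 9 of 9 macrophage markers and in 4 of 6 hepatocyte markers. Their part in the result was not tested. TA animal 2 of 6 h shared its fluidics run with the arrays of 24 h. Time here also includes a second dose by gavage, and these cannot be told apart. The TA effect itself was not called different between the times for any member (0.00537% of probe sets; 0 members and 4.61% of all genes at an unadjusted p under 0.05).

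**Figure D4:**
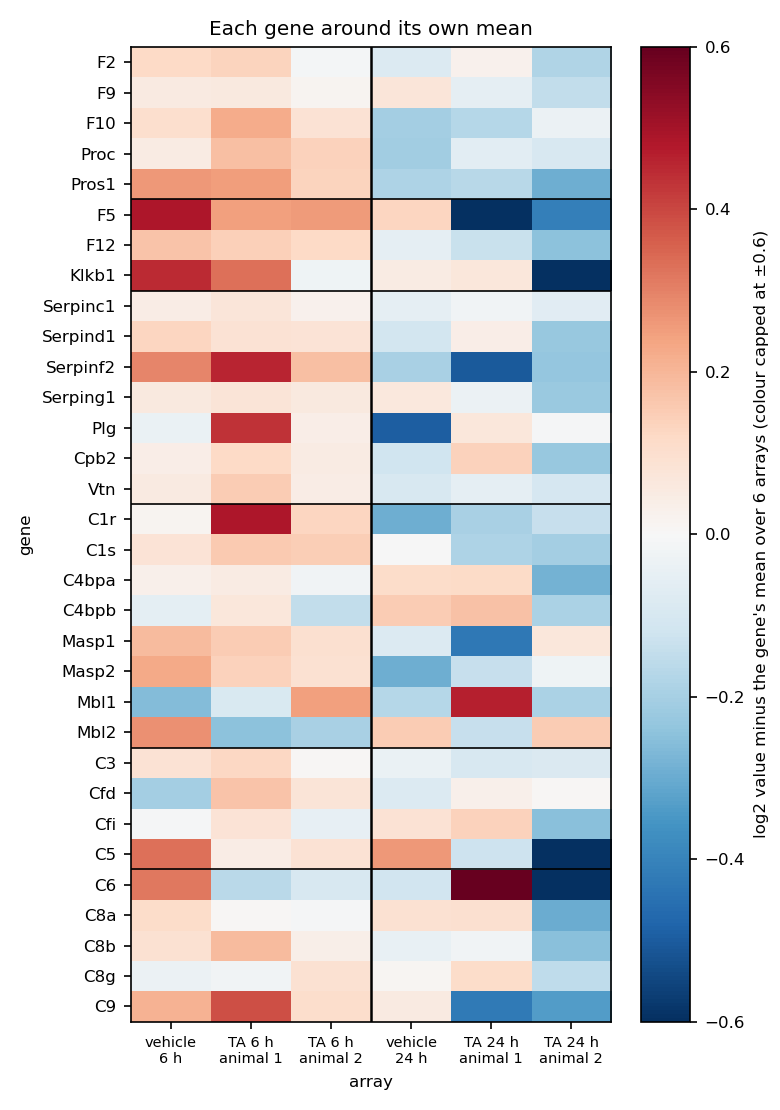
Colour gives the log2 value of each gene (rows, grouped as in the text) minus its mean over the 6 arrays (columns), capped at 0.6 in size. Red is above and blue below that mean, and all 3 arrays of 24 h are lower than all 3 of 6 h for 16 of the 32 genes.

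Other genes of the pathways were not called either. Of 67 further coagulation and complement genes listed, 51 were measured and 41 passed the filter, of which 0 were called at either time. At 6 h, 13 of the 41 were below the pool in both animals and 13 above it, against 38.4% and 22.9% of all genes. At 24 h, 17 were below and 10 above, against 34.5% and 28.1%. The 4 at least 1.5-fold lower in both animals at 24 h, against 1.28% of all genes, were A2m, alpha-2-macroglobulin, a broad protease inhibitor, at -1.59, F2r, a thrombin receptor, at -0.87, Tfpi2, a protease inhibitor, at -0.69 and Plat, tissue plasminogen activator, at -0.66; none was higher by as much, and none passed 1.5-fold at 6 h. F2r was at 7.98 in the vehicle pool and 7.14 and 7.08 in the animals at 24 h, and at 7.82, 7.82 and 7.71 at 6 h, so that both animals of 24 h were below the other 4 arrays (limma adjusted p = 0.90). In the vehicle pool of 6 h Tfpi2 was at 3.83, lower than in the TA animals of 24 h (4.03 and 3.97), and Plat at 4.68, close to theirs (4.67 and 4.63). The fibrinogen genes Fga, Fgb and Fgg, whose product thrombin turns into the clot, were chosen after their values were seen. Their differences were -0.075, -0.055 and -0.090 at 6 h and -0.22, -0.29 and -0.096 at 24 h. A dimmer probe set of Fga, with a mean of 13.96, had -0.22 at 6 h and -0.42 at 24 h. Other probe sets of Fgb, with means of 2.28 and 3.33, had -0.011 and -0.012 at 6 h. At 24 h these had -0.011 and -0.020.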

How the data were processed

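Liver RNA was hybridized to 6 Affymetrix Rat230_2 arrays, and the authors deposited log2 values for 31099 probe sets. The tools R 2.0.1, affy 1.5.8, RMA and GCRMA are named per the submitters' processing notes. Whether RMA or GCRMA made the table is not stated there. Groups were taken from the labels. The 57 control probe sets were left out, and probe sets with a mean above the 40th percentile (2.82) were tested, 18625 in all. Symbols come from the platform annotation, and those of all 37 member probe sets were the same in the RefSeq table.

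Group means were fitted over all these probe sets with limma 3.58.1 in R 4.3.3 (lmFit, eBayes; 2 residual and 1.60 prior degrees of freedom), two-sided, with Benjamini-Hochberg adjustment and calls under 0.05. Contrasts were TA against vehicle at 6 h, at 24 h, their mean and their difference. The p-values rest on the spread between the treated animals and assume that a pool varies like an animal. The fit was tested on simulated data. Alternatives covered the filter, prior, control pool, model, scaling, probe set summary, replicate and run blocks, and left-out arrays.

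The members, lists and alternatives were chosen with earlier results of these data known. Given in full were members called; at each time the 7 largest differences with both animals on 1 side of the pool; the 5 smallest p over both times; the 4 with animals furthest apart; and F2, Plg, Serpinc1, Proc, C3, C5, C9 and Mbl1 always. F7 and Cfb, also on that list, were not measured alone. Pathway genes outside the members were named if called or 1.5-fold apart in both animals; Serpinf2, Pros1 and others outside these rules were chosen after their values were seen.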

Additional observations from a re-analysis of the deposited data

Results flagged for a closer look

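For 3 of the 32 genes both TA animals of 6 h lay on one side of their pool and both animals of 24 h on the other. The share of all genes with such a turn was not counted, so this count is no result about these genes. At 6 h, 22.9% of all genes were above the pool in both animals and 38.4% below it. At 24 h these shares were 28.1% and 34.5%. Serping1 was above the pool at 6 h and below it at 24 h, a difference between the times of -0.20 (log2, 24 h minus 6 h). C1s had the same pattern, with -0.26. Masp2 had the opposite one, with 0.32, and in the brighter of its other probe sets both animals of 6 h were above the pool and those of 24 h lay on both sides. Against the pool of the other time Masp2 was at 0.41 at 6 h and -0.31 at 24 h, so that its pattern turned with the choice of pool. The differences themselves were tested as a contrast, and none was called (limma adjusted p = 1.0 for each). For Serping1 the differences at 6 h, 0.021 and 0.0025 in the animals, were smaller than the standard error of 0.13. That error is 1 estimate for both times. The SD between the 2 animals was 0.013 at 6 h and 0.13 at 24 h.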

How the results depend on the processing

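No member was called under any alternative run, 13 each for 6 h, 24 h and the difference between the times, and 14 for the mean of both times, where the additive model was also run. With both vehicle pools as 1 control group, the median of the members at 6 h was 0.071; against the pool of the other time it was 0.15 at 6 h and -0.20 at 24 h. Leaving out 1 TA animal at a time gave -0.053 to 0.026 at 6 h and -0.11 to 0.022 at 24 h. Against the pool of the other time the sign turned for 11 of 32 members at 6 h and 12 at 24 h. Among those given in full these were Klkb1 (0.10), F5 (0.12), Masp1 (0.21), Masp2 (0.41), F2 (0.14) and C3 (0.10) at 6 h, and at 24 h C1r (-0.18), C6 (-0.29), Masp2 (-0.31), F2 (-0.19), Serpinc1 (-0.088) and Proc (-0.13). With both pools as 1 group it turned for 9 and 10 members, among them Masp1 (0.070), Masp2 (0.15), F2 (0.043) and C3 (0.041) at 6 h, and at 24 h C1r (-0.027), C6 (-0.074), Masp2 (-0.048), F2 (-0.094), Serpinc1 (-0.040) and Proc (-0.00081). Quantile normalization turned 5 and 3 members, among them Masp1 at 6 h (0.037) and F2 at 24 h (-0.0053). The fluidics run as a block turned 4 members at 6 h, among them F2 (0.015) and C3 (0.039). TA animal 2 is the only array of 6 h in the second run, so this block gives the same values at 6 h as leaving that animal out and does not separate the run from the animal. The replicate numbers of the labels name different animals at each time, and deviations of same-numbered animals correlated at -0.079, so they were not taken as pairs. With the replicate block 0 members were called, and 6 and 3 turned, among them Klkb1 (0.026), F2 (0.031) and C3 (0.0055) at 6 h. Leaving out 1 TA animal at a time gave ranges that crossed 0 for F2 (-0.13 to 0.015), Serpinc1 (-0.019 to 0.031), C3 (-0.082 to 0.039) and C9 (-0.10 to 0.18) at 6 h, and for F2 (-0.097 to 0.11), Serpinc1 (-0.018 to 0.034), Mbl2 (-0.29 to 0.0014), C6 (-0.68 to 0.97), Mbl1 (-0.019 to 0.64), Klkb1 (-0.91 to 0.020) and Masp1 (-0.35 to 0.15) at 24 h. The cause of these turns was not tested. The count of members lower in all arrays of 24 h was 14 with the mean of probe sets of a gene and 16 to 19 with any 1 array left out, where the share of all genes was 18.0% to 26.8%. The count of members higher was then 1 without the vehicle pool of 6 h, 3 without TA animal 2 of 24 h and 0 without any of the other 4.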

Other observations

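Of 24 liver transcription factors and inflammatory inputs listed, 17 were above the filter and 0 were called. Hnf4a, a nuclear receptor of hepatocyte genes, was below the vehicle pool in all 4 TA animals, at 12.60 in the pool and 12.47 and 12.39 in the animals at 6 h, and at 12.85, 12.56 and 12.48 at 24 h (log2 differences of -0.17 and -0.33; limma adjusted p = 1.0 and 0.93). Its 2 dimmer probe sets were of the other sign at 6 h, 0.53 and 0.50, and of the same sign at 24 h, -0.21 and -0.29. Onecut1, a liver transcription factor, was at 11.78 in the pool and 8.60 and 9.81 in the animals at 6 h, and at 8.40, 10.31 and 10.19 at 24 h, so that the pools lay further apart than any pool and animal. Stat3, which carries the interleukin 6 signal, was at 9.74 in the pool of 24 h and 8.94 and 8.99 in the animals; its other probe set had a difference of -0.28. Il6r, the receptor of interleukin 6, had its 3 arrays of 24 h, 7.98 to 8.25, below its 3 arrays of 6 h, 8.68 to 9.34. So had Il6st, its signalling chain, at 11.26 to 11.61 against 12.15 to 12.23. Of the 17 above the filter, 3 were lower at 24 h in this way (15.1% of all genes). The 2 that were higher (13.3%) were Foxa1 and Nr1h4. Hnf4a, Il6r, Il6st and Il1b were chosen after their values were seen. The cytokine genes Il6 and Tnf were below the filter. Il1b, another cytokine gene, was above the filter and was not called. At 6 h both TA animals were above the pool for Il1b, with a log2 difference of 0.63 (limma adjusted p = 0.84). At 24 h both were below the pool, with a difference of -0.14.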
